A study of Mus musculus with 6 samples.

Results

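Transcripts of 43 genes that encode the DNA replication machinery were examined in mouse embryonic fibroblasts exposed to low oxygen. The genes were taken by name as a functional set, although earlier results of these data were known when the set was chosen. Of the 43 genes, 40 had a row of their own among 51482 measurements, 14575 of which the authors tested. The cells were wild-type fibroblasts immortalised with SV40. They were kept for 16 h at 21% oxygen (normoxia, 3 cultures) or at 0.5% oxygen (hypoxia, 3 cultures), and the series title concerns the rewiring of mitochondria by the protease YME1L, with no question about replication. SV40 large T antigen, known to bind the retinoblastoma protein and p53 and so to loosen the control of S phase entry, is a feature of both groups. All cultures are described as the same SV40-immortalised fibroblasts, so the groups differ in oxygen alone, per the labels.

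DNA replication starts at origins bound by the origin recognition complex (ORC). CDC6 and CDT1 load the ring-shaped MCM2 to MCM7 helicase there in G1, a step called licensing, and geminin blocks CDT1 until the next cycle. In S phase CDC45 and the GINS complex join MCM2 to MCM7 to form the active helicase, polymerase alpha-primase lays down primers, and polymerases delta and epsilon extend them with the PCNA clamp that replication factor C (RFC) loads. RPA coats the single strands, and FEN1, DNA2 and DNA ligase I finish the lagging strand. Many of these genes are textbook targets of the E2F transcription factors, which the retinoblastoma protein restrains.

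The deposited table gives 1 FPKM per gene and group (fragments scaled to transcript length and library size), into which the authors combined the 3 cultures. There is no value of a single culture and no SD, so rose and fell are used only of genes with a q-value below 0.05 in the authors' deposited table, and other genes are described as not called. Sequencing depth is unknown. Known low-oxygen genes matched the labels, with 9 of 9 higher in hypoxia and Car9 going from 5.20 to 43.5 FPKM. Fibroblast markers were present (Col1a1 at 463 and 451 FPKM, Vim at 883 and 2249 FPKM), except for Lum, listed at 0.0123 FPKM in normoxia and at 0 in hypoxia. Of 11 tested fibroblast markers 2 rose (Vim and Fn1) and 5 fell, among them Col3a1 from 328 to 182 FPKM, Col1a2 from 140 to 91.7 FPKM and Pdgfrb from 10.9 to 6.58 FPKM, with a median log2 fold change of -0.26. Of 13 markers of other cell types with a row, 8 were untested and at or below 0.0906 FPKM. Among the 5 tested ones the epithelial keratin gene Krt18 rose from 313 to 443 FPKM, the macrophage marker Cd68 rose from 1.32 to 2.27 FPKM, the epithelial cadherin gene Cdh1 fell from 5.93 to 3.76 FPKM, and Epcam and Des were not called. Those 5 summed to 337 FPKM at normal and 464 FPKM at low oxygen, and the part of these marker changes in the results on replication factors was not tested.

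Most replication factors rose slightly in hypoxia. Increases were called for 22 of the 40 measured genes and decreases for 5, and 13 were not called. The rises ran from 1.18-fold (Mcm4, a helicase subunit) to 1.95-fold (Cdc6, the licensing factor), and the falls from 1.31-fold (Gins3, a GINS subunit) to 1.96-fold (Orc2, an ORC subunit). Over all tested measurements the authors' deposited table calls 57.9% in either direction, 28.9% higher and 29.0% lower, against 55% of the replication factors higher and 12.5% lower. Where the mean of both groups reached 5 FPKM, a level that all 40 genes exceeded, 34.5% were higher and 29.9% lower. No replication factor changed by 2-fold or more, whereas 18.9% of all tested measurements were called and did. The median deposited log2 fold change was 0.28 for the 40 genes (quartiles 0.03 and 0.46) and -0.01 for all tested measurements. Altogether 30 of the 40 lay above the median of all tested measurements, but 29 lay inside the middle range bounded by its quartiles (-0.54 and 0.50). A change in the share of cells in S phase and a change in RNA per cell cannot be told apart in bulk RNA.

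**Figure D1:**
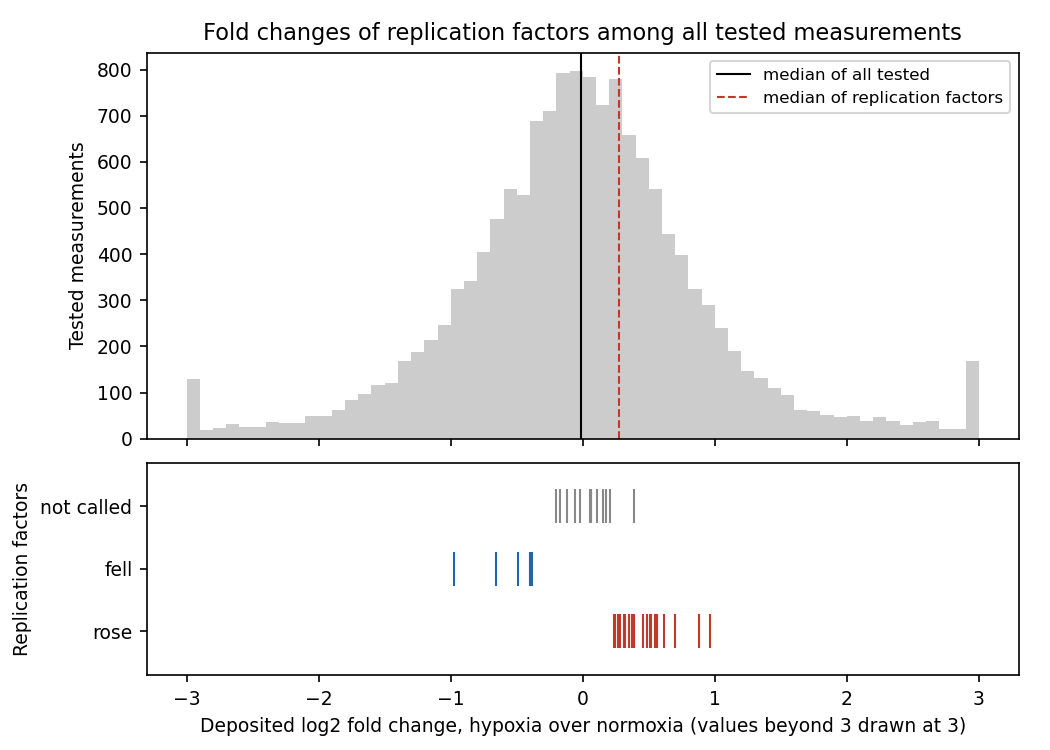
Top, number of tested measurements by deposited log2 fold change of hypoxia over normoxia, with the medians of all tested measurements (solid line) and of the 40 replication factors (dashed line). Bottom, each replication factor as a tick by the authors' call. The ticks lie between -0.97 and 0.97, with 22 called rises and 5 called falls.

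The median change of the 40 genes is close in size to a difference between the columns in summed FPKM, though not to one in the typical measurement. The FPKM of all measurements summed to 547351 for normoxia but to 639357 for hypoxia, which is 1.17 times as much. Dividing this factor out lowers every log2 fold change by 0.22, brings the median of the 40 genes to 0.05 and that of all tested measurements to -0.24, and leaves 23 of the 40 genes higher in hypoxia in place of 30. All 22 called rises stayed above 0 on that scale, but the smallest, Mcm4, was at 0.02. The gap between the median of the replication factors and that of all tested measurements, 0.29, is the same on either scale. By the median of ratios, in contrast, the columns differed by a factor of only 1.002, which lowers each log2 fold change by 0.0025. Of all tested measurements 49.4% were higher in hypoxia, called or not. Which genes make up the larger sum in hypoxia was not tested.

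E2F words known from promoters of this class were searched in RefSeq promoters on GRCm38.p6, from 250 bases before to 50 bases after each start, and the promoters of the genes that rose or fell most are printed to show where the words lie or are missing. Promoters were at hand for 35 of the 43 genes (43 promoters, since 6 genes have several starts). The E2F words were TTTCCCGC, TTTGGCGC, TTTCGCGC and TTTGCCGC, read on both strands. TTTGGCGC and TTTCGCGC can overlap a word read on the opposite strand, and such overlapping matches were counted as 1 promoter. A word stood in 16 of 43 replication factor promoters (37.2%), against 2.26% of all 32851 promoters in the table and 3.99% of the 12291 promoters of tested genes. By gene, 11 of 18 risers with a promoter had an E2F word, 1 of 5 fallers (Gins3) and 2 of 10 genes that were not called, and the other two were Cdt1 and Pole2. Outside the set, genes with such a word were split: of 447 tested ones 134 rose (30.0%) and 138 fell (30.9%), and the median log2 fold change was -0.04. Within the MCM2 to MCM7 ring Mcm3, Mcm5, Mcm6 and Mcm7 held a word, Mcm2 held none and Mcm4 was not matched to a promoter.

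Of the risers, Cdc6 (chr11:98907901-98908200, plus strand), Orc3 (chr4:34614893-34615192, minus strand), Mcm3 (chr1:20820263-20820562, minus strand) and Mcm6 (chr1:128359656-128359955, minus strand) are shown 5′ to 3′ on the strand of the gene, with E2F words in capitals. Mcm3 and Mcm6 were added after their matches were seen, for their several words.
Cdc6: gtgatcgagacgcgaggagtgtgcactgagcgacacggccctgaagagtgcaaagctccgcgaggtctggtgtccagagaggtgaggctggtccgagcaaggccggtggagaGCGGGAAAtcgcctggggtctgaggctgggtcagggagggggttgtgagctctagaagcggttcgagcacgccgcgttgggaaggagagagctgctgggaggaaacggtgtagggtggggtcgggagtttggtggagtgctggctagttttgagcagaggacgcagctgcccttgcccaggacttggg
Orc3: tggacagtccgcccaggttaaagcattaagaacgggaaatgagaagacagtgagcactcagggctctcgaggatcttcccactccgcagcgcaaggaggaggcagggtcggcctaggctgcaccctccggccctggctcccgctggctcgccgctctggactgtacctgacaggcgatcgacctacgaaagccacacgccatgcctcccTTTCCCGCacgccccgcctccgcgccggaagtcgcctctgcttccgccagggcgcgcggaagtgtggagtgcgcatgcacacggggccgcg
Mcm3: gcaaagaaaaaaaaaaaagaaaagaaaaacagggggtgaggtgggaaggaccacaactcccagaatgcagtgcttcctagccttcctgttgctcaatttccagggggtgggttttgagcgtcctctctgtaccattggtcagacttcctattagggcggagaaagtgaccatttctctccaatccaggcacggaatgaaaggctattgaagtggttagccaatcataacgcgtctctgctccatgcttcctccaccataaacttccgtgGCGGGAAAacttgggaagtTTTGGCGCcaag
Mcm6: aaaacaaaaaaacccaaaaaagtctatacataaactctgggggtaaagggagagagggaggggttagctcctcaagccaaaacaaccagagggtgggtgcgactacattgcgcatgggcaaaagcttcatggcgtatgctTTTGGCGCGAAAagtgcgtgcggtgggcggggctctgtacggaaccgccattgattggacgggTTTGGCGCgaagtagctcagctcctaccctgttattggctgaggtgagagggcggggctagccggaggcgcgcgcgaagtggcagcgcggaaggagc
Counted from the RefSeq start site, with negative positions upstream, the Cdc6 word begins at -138 and the Orc3 word at -41. In GENCODE M21, however, the Cdc6 gene starts at 98907801, so the whole printed Cdc6 window lies inside the gene. By that annotation the Cdc6 word stands downstream of the start. Both Mcm3 words follow the start, at 20 and 39. Mcm6 holds an overlapping pair of words at -110 and -106, read on opposite strands, and a further one at -47.

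The risers were not alike in this respect, since Cdc45 (chr16:18811923-18812222, minus strand), the gene with the next largest rise after Cdc6, had no E2F word in its window. Neither did Orc2 (chr1:58505060-58505359, minus strand, the upstream one of its 2 promoters), Pola2 (chr19:5964157-5964456, minus strand) and Dna2 (chr10:62946779-62947078, plus strand), which fell most.
Cdc45: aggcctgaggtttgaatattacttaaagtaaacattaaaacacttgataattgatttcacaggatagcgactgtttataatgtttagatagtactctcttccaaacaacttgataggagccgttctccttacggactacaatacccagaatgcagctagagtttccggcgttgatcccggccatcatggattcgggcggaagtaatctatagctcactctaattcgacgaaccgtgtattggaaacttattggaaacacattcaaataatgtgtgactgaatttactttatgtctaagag
Orc2: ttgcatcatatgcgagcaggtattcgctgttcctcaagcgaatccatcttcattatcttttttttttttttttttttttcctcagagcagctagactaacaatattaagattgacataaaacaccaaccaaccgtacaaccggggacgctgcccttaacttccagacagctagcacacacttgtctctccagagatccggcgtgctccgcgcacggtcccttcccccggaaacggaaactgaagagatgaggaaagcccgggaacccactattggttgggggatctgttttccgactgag
Pola2: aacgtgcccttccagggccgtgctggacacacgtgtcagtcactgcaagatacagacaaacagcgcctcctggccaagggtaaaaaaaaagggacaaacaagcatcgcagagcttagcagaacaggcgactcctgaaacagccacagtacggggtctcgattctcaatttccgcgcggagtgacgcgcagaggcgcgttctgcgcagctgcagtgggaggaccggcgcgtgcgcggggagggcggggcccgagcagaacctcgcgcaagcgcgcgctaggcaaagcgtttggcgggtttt
Dna2: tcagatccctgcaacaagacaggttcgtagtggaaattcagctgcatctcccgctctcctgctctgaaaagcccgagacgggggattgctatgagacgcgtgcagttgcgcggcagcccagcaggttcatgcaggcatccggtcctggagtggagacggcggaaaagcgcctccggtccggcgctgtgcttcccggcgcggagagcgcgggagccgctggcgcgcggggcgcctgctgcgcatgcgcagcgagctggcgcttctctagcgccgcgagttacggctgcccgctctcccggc
These windows therefore hold no capitals. No match says only that these letters are not in this window.

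For the other words searched, the shares lay closer to those of tested genes. The box CCAAT, read on both strands, stood in 55.8% of the replication factor promoters and 37.9% of promoters of tested genes. ACGTG, the core of the hypoxia response element, stood in 30.2% and 25.3%, among them Pola2, where 3 matches, 2 of them overlapping, begin at -249, -221 and -220. TTTGAA, the cell cycle homology region known from genes of G2 and mitosis, stood in 11.6% and 11.7%, whereas the G2 and mitosis genes described below had it in 15 of 23 promoters (65.2%) and an E2F word in 1.

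**Figure D2:**
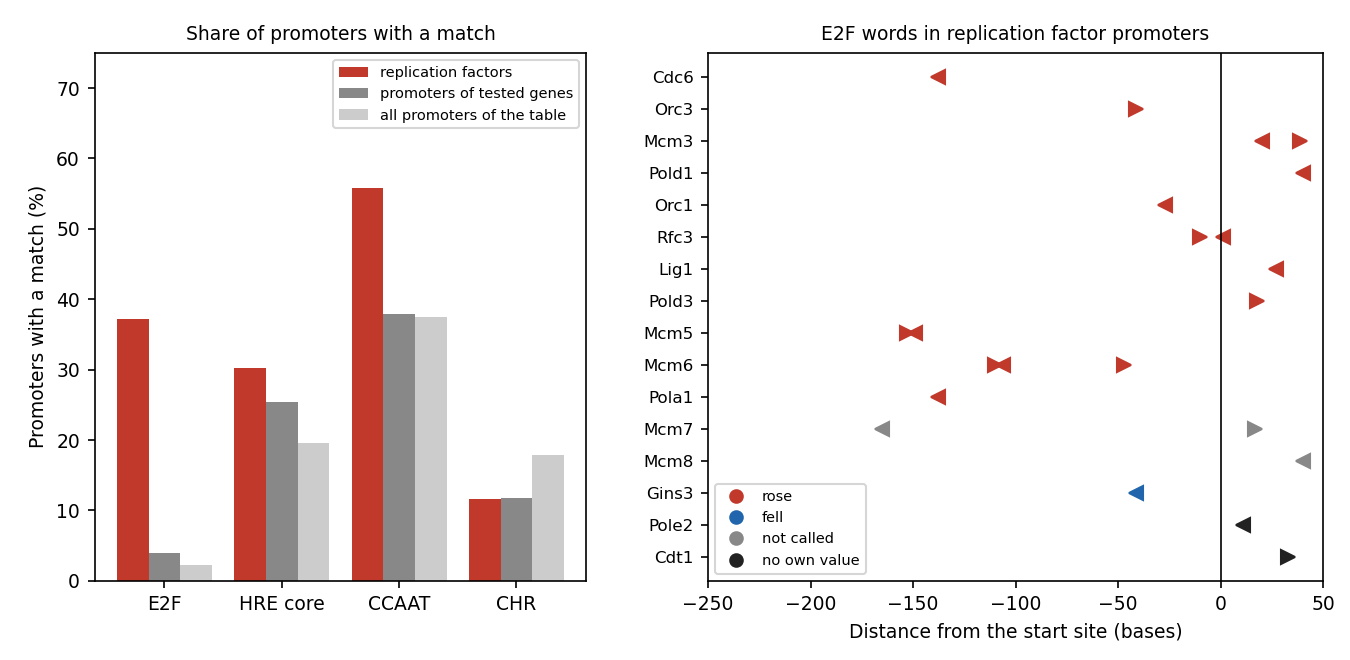
Left, share of promoters (%) that hold each word, for replication factors, tested genes and all RefSeq promoters in the table. Right, first base of each E2F word relative to the RefSeq start site (bases) in the 16 replication factor promoters that hold one. Genes are ordered by fold change, triangles point in the reading direction of the word and colours give the authors' call. The E2F share is 37.2% for replication factors and 3.99% for tested genes, while the shares for the other words lie closer together.

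ORC, which marks origins, had 5 subunit genes that rose and 1 that fell. Orc1, the subunit that varies most over the cell cycle, rose from 11.7 to 16.8 FPKM (log2 fold change 0.51, q = 0.000269 in the authors' deposited table). Orc3 rose from 28.7 to 46.5 FPKM (0.70), Orc5 from 18.9 to 29.1 FPKM (0.62), Orc4 from 38.4 to 56.8 FPKM (0.57, q = 0.0344) and Orc6 from 103 to 148 FPKM (0.52, q = 0.0121). In contrast Orc2, which forms a stable core with ORC3, fell from 20.7 to 10.6 FPKM (-0.97, q = 0.000139). Its level was 1.96-fold lower in hypoxia, and ORC went from an 8.77-fold span between its least and most abundant subunit transcripts in normoxia to a 14.0-fold span in hypoxia. In normoxia Orc1 was the lowest of the 6, and in hypoxia Orc2 was.

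Several of these measurements share their ground with a gene on the opposite strand. Orc2 overlaps Nif3l1, which fell from 14.4 to 5.84 FPKM, Orc4 overlaps Mbd5, which rose from 9.14 to 27.6 FPKM, and Orc6 overlaps Vps35, which rose from 85.5 to 128 FPKM. In each of these cases the neighbour moved the same way as the ORC gene. Acvr2a, which also overlaps Orc4, was not called at 4.78 and 6.23 FPKM. Ppil3, which lies beside Orc2 on the same strand and within the deposited Orc2 locus, fell as well, from 23.9 to 10.9 FPKM. Overlaps outside ORC included pairs that did not move together. Fen1 fell while Tmem258 rose, and Wsb2 fell from 58.8 to 43.8 FPKM while Rfc5 was not called. The library kit keeps strand information, per the labels' protocols, but no source used here says whether the counting used it, and the part of the overlap in these values was not tested. Of the 40 genes, 10 overlap another protein-coding gene. Leaving them out left 30 genes, with 17 called rises, 3 called falls and a median of 0.26.

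Both licensing factors with a row of their own rose. Cdc6 (chromosome 11, 98907801 to 98923940 on GRCm38), which loads the helicase, went from 23.5 to 45.9 FPKM, the largest rise of the set (log2 fold change 0.97, q = 0.000139 in the authors' deposited table). Gmnn, which encodes the licensing inhibitor geminin, went from 89.0 to 111 FPKM (0.31, q = 0.00275). The transcript of the loader thus rose more steeply than that of the inhibitor, though the difference between them was not tested. Cdt1 had no row under its name and is not analysed here.

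The MCM2 to MCM7 helicase genes were among the most abundant of the set and stayed close to each other. Their levels spanned 87.7 to 148 FPKM in normoxia and 104 to 185 FPKM in hypoxia, a 1.69-fold and a 1.79-fold span. Mcm3 rose from 120 to 177 FPKM (log2 fold change 0.56, q = 0.000139 in the authors' deposited table), Mcm5 from 148 to 185 FPKM (0.32), Mcm6 from 114 to 139 FPKM (0.28) and Mcm4 from 87.7 to 104 FPKM (0.24, q = 0.0167). Mcm2, at 145 and 150 FPKM (q = 0.641), and Mcm7, at 139 and 149 FPKM (q = 0.510), were not called. The 6 subunits together summed to 753 and then 904 FPKM. The relatives outside this ring differed. Mcm10, which helps to start the fork, rose from 24.4 to 33.4 FPKM (0.46), and Mcm8, known from meiosis and break repair, stood at 13.4 and 11.7 FPKM and was not called (q = 0.0953).

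The factors that turn the ring into an active helicase did not move together. Cdc45 (chromosome 16, 18780447 to 18811987 on GRCm38) rose from 41.1 to 75.9 FPKM (log2 fold change 0.88, q = 0.000139 in the authors' deposited table). The gene overlaps Ufd1, which was not called at 36.0 and 45.2 FPKM. No rise was called among the GINS genes measured: Gins3 fell from 9.60 to 7.35 FPKM (-0.39, q = 0.00389), and Gins1, at 29.0 and 25.7 FPKM (q = 0.149), and Gins4, at 69.0 and 66.4 FPKM (q = 0.627), were not called. In normoxia Gins4 had the highest level of these 4 genes, and in hypoxia Cdc45 had. Gins2 had no row under its name.

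**Figure D3:**
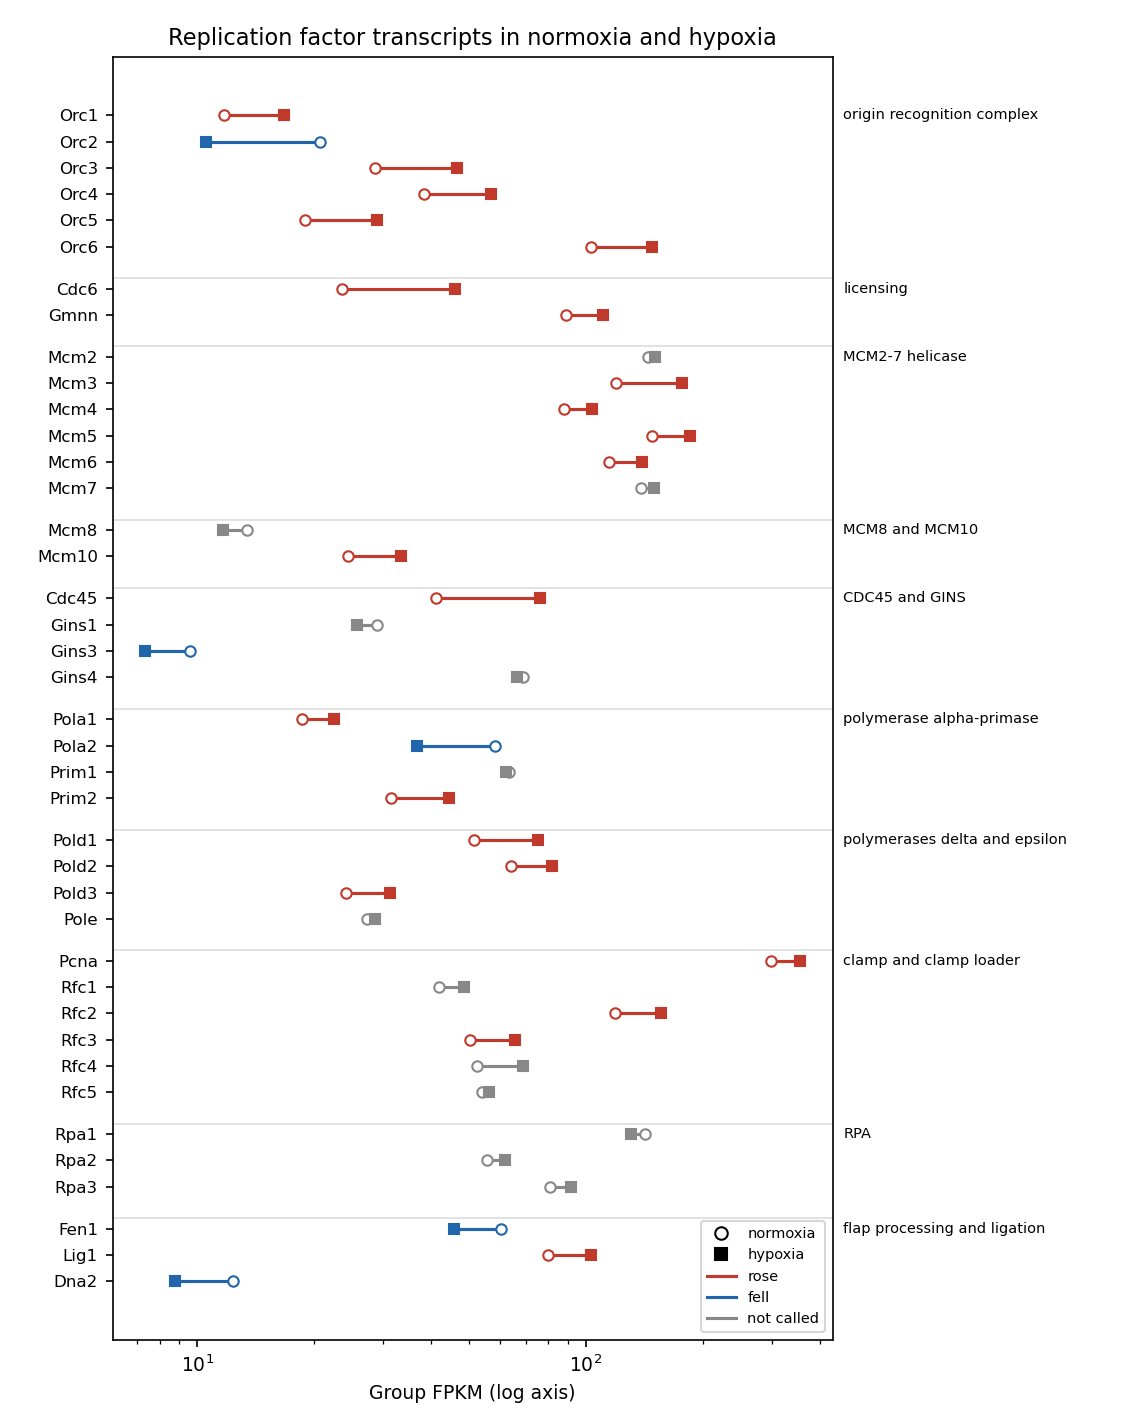
Group FPKM (log axis) of the 40 replication factors in normoxia (open circles) and hypoxia (filled squares), grouped by role and coloured by the authors' call. Among the ORC genes Orc2 alone moves to the left, the MCM2 to MCM7 genes lie close together, and the 3 RPA genes are all grey.

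Polymerase alpha-primase, which makes the primers, was split between its subunits. Pola1, the catalytic polymerase subunit, rose from 18.6 to 22.4 FPKM (log2 fold change 0.27, q = 0.00881 in the authors' deposited table), while Pola2, its regulatory partner, fell from 58.2 to 36.8 FPKM (-0.66, q = 0.000139). Prim2, the large primase subunit, rose from 31.6 to 44.3 FPKM (0.49), and the catalytic primase gene Prim1 was not called at 63.4 and 62.4 FPKM (q = 0.855). The levels of Pola1 and Pola2 moved nearer to each other, and the 4 subunits together summed to 172 and then 166 FPKM.

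Polymerase delta, which copies mainly the lagging strand, rose in the 3 subunits examined. Its catalytic gene Pold1 went from 51.6 to 75.4 FPKM (log2 fold change 0.55, q = 0.000269 in the authors' deposited table), Pold2 from 64.1 to 81.9 FPKM (0.35) and Pold3 from 24.2 to 31.2 FPKM (0.37). Pole, the catalytic gene of polymerase epsilon of the leading strand, was not called at 27.4 and 28.6 FPKM (q = 0.734). Pole2 is measured only jointly with 4 overlapping genes (268 and 265 FPKM, not called), among them a ribosomal protein gene, so it has no value of its own.

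The clamp gene was the most abundant of the set. Pcna rose from 299 to 355 FPKM (log2 fold change 0.24, q = 0.0179 in the authors' deposited table). Of the 5 clamp loader genes Rfc2 rose from 119 to 156 FPKM (0.39, q = 0.00133) and Rfc3 from 50.2 to 65.7 FPKM (0.39, q = 0.000518). Rfc4 showed the same log2 fold change of 0.39, at 52.5 and 68.7 FPKM, without being called (q = 0.133). The same size of change thus passed the authors' test in Rfc2 and Rfc3 but not in Rfc4. Rfc4 overlaps the more abundant Eif4a2, which rose from 141 to 257 FPKM, and the part of that overlap was not tested. Rfc1, the large subunit (41.9 and 48.4 FPKM, q = 0.250), and Rfc5 (53.9 and 56.4 FPKM, q = 0.838) were not called.

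None of the genes of RPA, the trimer that protects single strands, was called. Rpa1 stood at 142 and 130 FPKM (q = 0.384), Rpa2 at 55.6 and 61.9 FPKM (q = 0.175) and Rpa3 at 80.6 and 91.2 FPKM (q = 0.101) in the authors' deposited table. The log2 fold changes lay between -0.12 and 0.18, and with group values alone no interval can be put around them.

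The lagging strand nucleases fell while the ligase rose. Fen1, the flap endonuclease gene, fell from 60.4 to 45.8 FPKM (log2 fold change -0.40, q = 0.00359 in the authors' deposited table), although the gene overlaps Tmem258, which rose from 167 to 235 FPKM. Dna2, the nuclease-helicase that trims long flaps, fell from 12.4 to 8.79 FPKM (-0.49, q = 0.000518). Lig1, which seals the fragments, rose from 79.6 to 103 FPKM (0.37, q = 0.000518). The 3 genes of this step thus moved in different directions, and their sum hardly differed between normoxia (152 FPKM) and hypoxia (158 FPKM).

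Some replication factors share a start region with a gene on the other strand, and these neighbours were called in both directions. The pattern, and the condition of no overlap, were chosen after the values were seen. Of 12 measured neighbours that start within 1000 bases, 6 fell, 3 rose and 3 were not called. The 5 that overlap their replication factor hold all 3 rises (Mbd5 beside Orc4, Vps35 beside Orc6 and Tmem258 beside Fen1) and no fall, with Ufd1 beside Cdc45 and Ap4m1 beside Mcm7 not called. For the other 7 measured replication factors a protein-coding gene with a row of its own starts within 1000 bases upstream on the opposite strand, with no overlap of the genes. Of these 7 neighbours 6 fell and 1 was not called, against 33.7% lower among the 1072 tested genes that have such a neighbour. Orc3 rose from 28.7 to 46.5 FPKM, while Rars2, the gene of a mitochondrial arginyl-tRNA synthetase that starts 13 bases away, fell from 13.6 to 7.21 FPKM. In the printed Orc3 promoter the start of Rars2 therefore lies within the window, on the other strand. Orc1 rose, while Prpf38a, a splicing factor gene that starts 87 bases away, fell from 51.8 to 38.2 FPKM. Mcm4 rose, and Prkdc, which encodes the catalytic subunit of the DNA-dependent protein kinase, fell from 2.22 to 1.70 FPKM.

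The remaining 4 replication factors with such a neighbour were not called. Next to them, Trmt6, a tRNA methyltransferase subunit gene beside Mcm8, fell from 11.8 to 4.56 FPKM, Pxmp2, a peroxisomal membrane protein gene beside Pole, from 5.35 to 2.90 FPKM (q = 0.0275 in the authors' deposited table), and Abhd12, a lipase gene beside Gins1, from 39.8 to 27.4 FPKM. Smyd4, beside Rpa1, was not called at 8.57 and 7.80 FPKM. Opposite calls were met in 3 of the 7 replication factor pairs and in 90 of all 539 such pairs (16.7%), and calls in the same direction in 132 (24.5%).

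**Figure D4:**
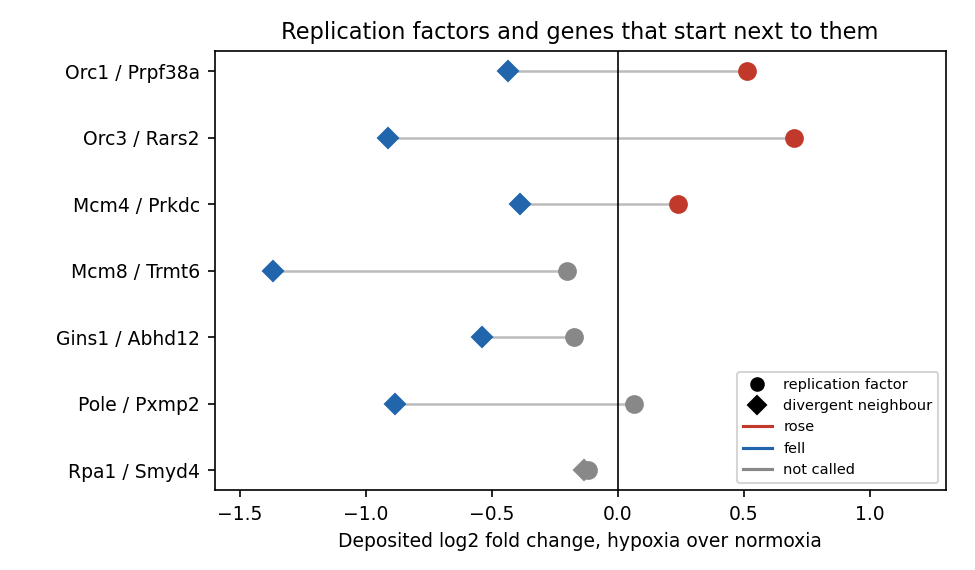
Deposited log2 fold change of 7 replication factors (circles) and of neighbours on the opposite strand (diamonds), coloured by the authors' call. The neighbours drawn start within 1000 bases upstream and do not overlap the replication factor, a condition chosen after the values were seen. Neighbours that overlap are not drawn. Among them Mbd5, Vps35 and Tmem258 rose, while Ufd1 and Ap4m1 were not called. Each diamond lies to the left of its circle, by a wide margin for Orc3 and Rars2 and by a margin of 0.01 for Rpa1 and Smyd4.

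Among 33 tested further genes of the replication pathway, 10 were called higher (30.3%) and 7 lower (21.2%), and the median log2 fold change was 0.05. The share called higher is near the 28.9% of all tested measurements, of which 29.0% were lower, and the difference from the core factors was not tested. The largest rises were of genes with different roles. Ticrr, whose product brings CDC45 to origins, rose from 6.49 to 18.0 FPKM (1.47), and Fbxo5, which encodes the inhibitor EMI1 that keeps geminin stable, from 31.0 to 76.7 FPKM (1.31). Cdc7, the kinase that activates the helicase, rose from 16.2 to 31.3 FPKM (0.95), with its activator Dbf4 at 54.2 and 66.6 FPKM (0.30, also called). Mtbp (49.6 and 48.5 FPKM), Topbp1 (59.6 and 54.0 FPKM) and Recql4 (15.5 and 16.3 FPKM), which also act in origin firing, were not called. Pold4, the small polymerase delta subunit gene, rose from 0.186 to 0.422 FPKM (1.18), far below the 24.2 to 81.9 FPKM of Pold1, Pold2 and Pold3. The topoisomerase genes diverged, Top2a rising from 255 to 461 FPKM and Top1 falling from 36.3 to 28.1 FPKM. Other falls were those of Stn1, a telomere replication factor (23.5 to 13.9 FPKM), Chtf8, of an alternative clamp loader (70.8 to 46.5 FPKM), Supt16, a FACT subunit (33.7 to 22.6 FPKM), and the exonuclease gene Exo1 (28.4 to 19.6 FPKM).

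Genes of deoxynucleotide supply, listed here together with the breakdown gene Samhd1, went against the replication factors. Among 11 tested genes, 7 were called lower (63.6%) and 1 higher (9.09%), and the median log2 fold change was -0.53. Over all tested measurements 29.0% were lower and 28.9% higher. Dctd, the deoxycytidylate deaminase gene, fell from 10.8 to 4.41 FPKM (-1.30), Tyms, of thymidylate synthase, from 130 to 76.1 FPKM (-0.77), and Rrm2, the regulated ribonucleotide reductase subunit, from 118 to 72.8 FPKM (-0.70). The other ribonucleotide reductase gene Rrm1 was not called at 176 and 173 FPKM (q = 0.874 in the authors' deposited table), and Dck, of the salvage enzyme deoxycytidine kinase, rose from 30.1 to 51.0 FPKM. Dtymk, of thymidylate kinase, fell from 87.1 to 58.0 FPKM. Smaller falls included those of Tk1 (1.44-fold) and Samhd1, which breaks deoxynucleotides down (1.43-fold). The difference between this list and the replication factors could not be tested with 1 value per group.

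Among the 10 tested cyclin and kinase genes of G1 and S phase 4 rose (40%) and 2 fell (20%), with a median of 0.24. Over all tested measurements 28.9% were higher and 29.0% lower. Ccne1, of cyclin E1, fell from 12.3 to 3.50 FPKM (log2 fold change -1.82) and Ccnd1, of cyclin D1, from 26.3 to 7.37 FPKM (-1.83), but Ccnd3 rose from 75.5 to 141 FPKM, and Ccne2 was not called at 19.8 and 23.3 FPKM (q = 0.357 in the authors' deposited table). Ccna2, of the S phase cyclin A2, rose from 118 to 191 FPKM, and Cdk2 from 46.9 to 65.9 FPKM. For G2 and mitosis, 16 of 26 tested genes were called higher (61.5%) and 0 lower (median 0.38). Nek2, a centrosomal kinase gene, rose from 0.258 to 0.928 FPKM, below 1 FPKM in both groups. Kif11, also called higher, was as low, at 0.462 and 0.616 FPKM. Aurkb rose from 81.8 to 196 FPKM (1.26), Bub1 from 36.8 to 79.0 FPKM and the proliferation marker Mki67 from 71.4 to 145 FPKM. Ccnb1 (118 and 111 FPKM, q = 0.460) and Plk1 (78.2 and 80.2 FPKM, q = 0.754) were not called.

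The medians of chromatin assembly and checkpoint genes lay between those of deoxynucleotide supply and of G2 and mitosis. Of 11 tested genes of chromatin assembly 4 rose (36.4%) and 2 fell (18.2%), with a median of 0.08. The shares over all tested measurements were 28.9% higher and 29.0% lower. Mms22l, which acts at stalled forks, rose to 42.5 FPKM (0.95) and Chaf1a, of the histone chaperone CAF-1, from 65.3 to 102 FPKM, while the histone chaperone genes Nasp and Asf1a fell, Nasp from 136 to 81.5 FPKM. Among 8 tested ATR and CHK1 checkpoint genes 3 rose (37.5%) and 2 fell (25%), with a median of 0.31. Chek1 rose from 17.8 to 27.7 FPKM, Atr from 4.11 to 6.74 FPKM and Etaa1 from 7.96 to 13.2 FPKM, and of the checkpoint clamp genes Rad1 fell from 16.9 to 12.3 FPKM and Hus1 to 4.29 FPKM.

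**Figure D5:**
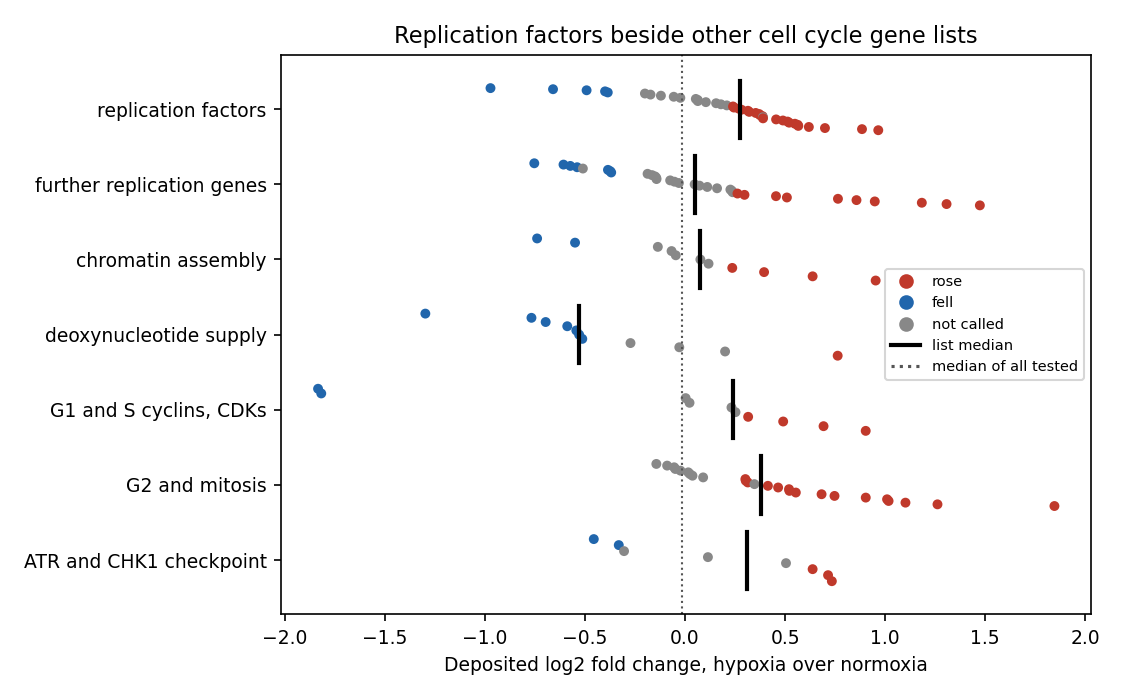
Deposited log2 fold change of hypoxia over normoxia for each tested gene (points, coloured by the authors' call) of the replication factors and 6 other cell cycle lists, with list medians (bars) and the median of all tested measurements (dotted line). The median is 0.28 for replication factors, 0.38 for G2 and mitosis, and -0.53 for deoxynucleotide supply.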

How the data were processed

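The submitters' processing notes name the build GRCm38 and the tools Cuffdiff 2.2.1, Cufflinks, StringTie 1.3.4d and HISAT2 2.1.0, without their roles. The authors deposited 1 table with 1 FPKM per gene and group, combining 3 replicates, and per the file headers added a log2 fold change, a test score (not used) and a p-value with its q-value. No source used here gives the library scaling. Rows repeating 1 measurement under several identifiers were counted once. Fits to single samples could not be made, so all calls are the authors' deposited q-values below 0.05, adjusted over all genes tested. The smallest q, 0.000139, is shared by 5148 measurements and ranks none of them.

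The members and lists were chosen with earlier results of these data known. All 40 members are named, and from other lists called genes with the largest changes, with others chosen after their values were seen. Coordinates are from GENCODE M21, 1-based, and promoters from RefSeq (GRCm38.p6). The first transcribed bases of 37 of 43 promoters stood in an annotated transcript of the gene. The motif search was tested on simulated data. Python 3.11.15, pandas 2.3.3 and numpy 2.4.6 were used. Alternatives were q below 0.01, a 2-fold threshold, filters of 1 and 5 FPKM, pseudocounts of 1, 0.1 and none, and rescaling by the median of ratios. Equal summed FPKM and leaving out overlapping genes were added after seeing the data.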

Additional observations from a re-analysis of the deposited data

How the results depend on the processing

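No paired analysis was possible because the deposited table holds 1 value per group, and for the same reason leaving out a replicate was not run. At q below 0.01, 18 replication factors were called higher and 5 lower. With a 2-fold threshold 0 were called higher and 0 lower, and of the 99 tested further genes 8 were higher and 3 lower in place of 38 and 20. The filters of 1 and 5 FPKM removed no replication factor. Without the 10 genes that overlap another protein-coding gene 3 were lower (17 higher), by construction from 30 genes. The median log2(FPKM + 1) fold change was 0.27 and stayed between 0.25 and 0.28 under the pseudocounts, the filters, the median of ratios and the removal of overlapping genes, but was 0.0496 with equal summed FPKM, which lowers every value alike. The deposited scaling between the columns cannot be checked without values of single samples, and the smallest called rise, Mcm4 at 0.24, lies just above the 0.22 shift. Depth is unknown.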

Other observations

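Of the 40 replication factors, 7 occur on chromosome 5, the most on any 1 of 13 chromosomes, and of these Orc5, Rfc2 and Rfc3 rose while Mcm7, Pole, Rfc1 and Rfc5 were not called in the authors' deposited table. The RefSeq promoters of the deoxynucleotide supply genes held an E2F word in 0 of 11 cases, against 9 of 29 promoters of the further replication genes and 16 of 43 of the replication factors. These are counts of letters in fixed windows and were not tied to the fold changes by a test.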
